A study of Mus musculus with 24 samples.

Results

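Mouse embryoid bodies of the genotype Carma3xpA/+ were compared with wild type (WT) embryoid bodies on day 6 (d6) of cardiac differentiation, gene by gene, with the genes of chromosome 11 kept apart from all others. The comparison took in 6 of the 24 libraries of the series, 3 of Carma3xpA/+ and 3 of WT, picked by the genotype and day in their labels. Both genotypes were 129/Sv embryonic stem cells grown in serum and LIF on feeder layers of mouse embryonic fibroblasts, aggregated in hanging drops without LIF, and collected as embryoid bodies at d6. In the usual notation Carma3xpA/+ means that 1 allele of Carma carries a cassette of 3 polyadenylation signals, which ends transcription early, and that the other allele is intact. The remaining libraries were of both genotypes at d0 (undifferentiated cells), d3 and d10, and they entered the fit as well. The labels speak of biological replicates but do not say whether these were separate clones, thaws or cultures, so the p-values measure only the spread between these libraries. Only protein-coding genes are in the values used, and Carma is noncoding, so the genotype labels were not checked against its RNA.

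Carma is a long noncoding RNA gene on chromosome 2, beside the gene that hosts the microRNAs Mir1a-1 and Mir133a-2 and close to Gata5, a transcription factor of heart and endoderm. In embryoid bodies, mouse stem cells form derivatives of all germ layers side by side. At about d6 these include primitive blood, vessels, the first heart muscle and a visceral endoderm, the epithelium that in the embryo covers the yolk sac, takes up proteins through the receptor pair cubilin and amnionless, and secretes apolipoproteins and alpha-fetoprotein under the control of factors such as Hnf4a.

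RNA was measured as FPKM, fragments scaled to transcript length and to the number of mapped fragments. Of 14737 protein-coding gene records, 13373 were tested because 3 or more of the 24 libraries reached 1 FPKM, 1085 on chromosome 11 and 12288 elsewhere. Read counts are not part of these values, so the depth is unknown and no counting interval can be given. In the 6 d6 libraries summed FPKM lay between 245274 and 266662, and 11556 to 11674 genes reached 1 FPKM. WT replicate 1 stood apart from the other WT libraries on the second principal component of the d6 libraries (score -19.7, against 6.36 and 11.5 in WT replicates 2 and 3), which held 15.9% of the variance, and results that rest on it are given with and without it. The labels name the cells embryonic stem cells, but RNA of the pluripotency factor Pou5f1 was far lower at d6 than at d0. It averaged 19.9 ± 4.75 FPKM in Carma3xpA/+ and 16.8 ± 1.04 FPKM in WT at d6 (SD, n = 3 each), against 291 ± 122 and 243 ± 14.6 FPKM in the same genotypes at d0. Whether some stem cells remained was not tested. Differences are given on the log2(FPKM + 1) scale, Carma3xpA/+ minus WT, which understates the change of low genes, and folds are ratios of mean FPKM. Every adjusted p is from limma with Benjamini-Hochberg adjustment over all 13373 genes, two-sided, and a gene was called at an adjusted p under 0.05.

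At d6 1040 genes were called (7.78% of those tested), 575 higher (4.3%) and 465 lower (3.48%) in Carma3xpA/+. Chromosome 11 stood apart from the rest. There 224 of 1085 genes were called higher (20.6%) and 19 lower (1.75%), whereas elsewhere 351 of 12288 were called higher (2.86%) and 446 lower (3.63%). The median log2 difference was 0.26 on chromosome 11 and -0.01 on all other chromosomes together, and 85.1% of the chromosome 11 genes had a positive difference. The medians of the other autosomes and the X chromosome lay between -0.06 (chromosome 8) and 0.07 (the X chromosome), so chromosome 11 lay outside their range. No such median was taken for Y-linked or mitochondrial genes. For the 729 chromosome 11 genes that averaged 5 FPKM or more the median fold was 1.25. Summed over all chromosome 11 genes, Carma3xpA/+ libraries held 30256, 30469 and 30614 FPKM, against 25925, 28204 and 25075 FPKM in WT libraries. All 3 Carma3xpA/+ sums lay above all 3 WT sums.

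The difference ran along the whole chromosome. In 13 consecutive bins of 10 megabases the median log2 difference was between 0.21 and 0.41, and between 12.5% and 37.5% of the genes in a bin were called higher. Most single differences were small: the 224 genes called higher had a median log2 difference of 0.47, and 7 of them reached 1. Called or not, 595 of the 1085 chromosome 11 genes (54.8%) had all 3 Carma3xpA/+ libraries above all 3 WT libraries. Of all genes tested, 16.8% showed this pattern in the same direction and 31% in either. On the X chromosome 39 of 495 genes were called higher (7.88%) and 12 lower. Without 1 library the count of chromosome 11 genes called higher was 167 without WT replicate 1, and it moved by more than 1.5 times to 123, 144 and 126 without Carma3xpA/+ replicates 1, 2 and 3 and to 108 without WT replicate 2. Genomic DNA was not analysed here.

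**Figure D1:**
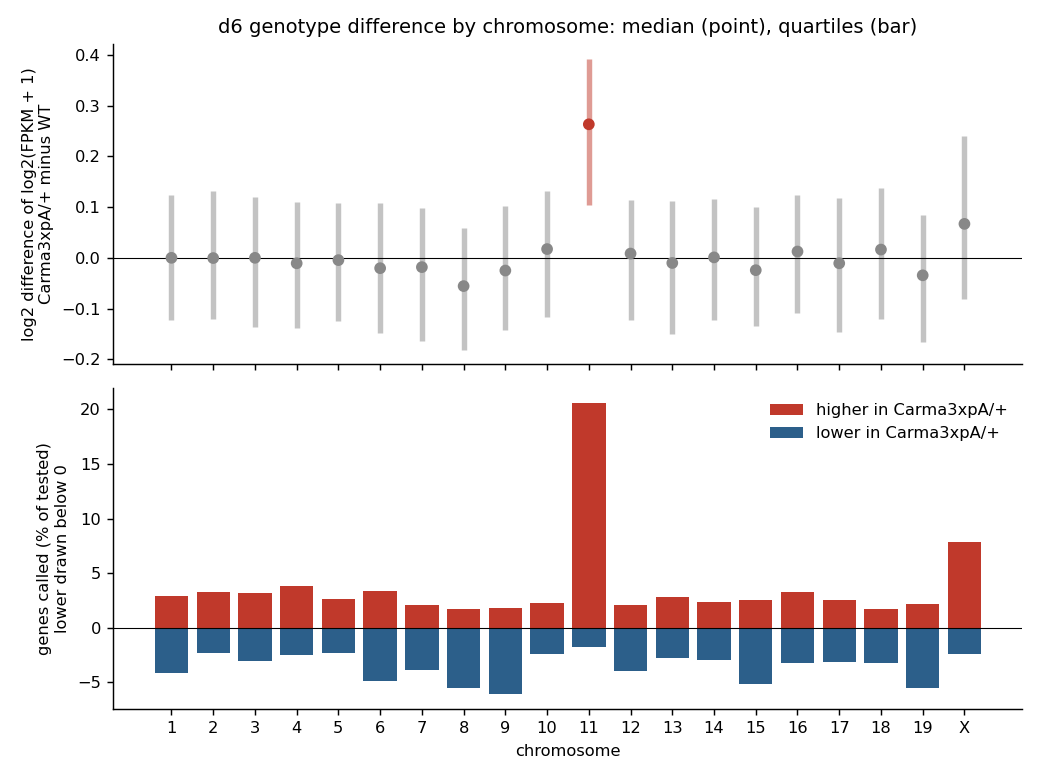
Genotype difference at d6 by chromosome. The upper panel shows the median (point) and quartiles (bar) of the log2 difference of log2(FPKM + 1), Carma3xpA/+ minus WT, over the genes tested on each chromosome. The lower panel shows the percentage of genes called higher (red) or lower (blue, drawn below 0). Chromosome 11 has a median of 0.26 and 20.6% of its genes called higher. None of the other autosomes, nor the X chromosome, has a median above 0.07. Y-linked and mitochondrial genes are not shown.

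Among chromosome 11 genes, Tbx4 had the largest positive difference. Tbx4 (ENSMUSG00000000094.12, mm10 chromosome 11, 85886422 to 85916097) is a T-box factor of allantois, lung and hindlimb mesenchyme, and it had 24.2, 38.6 and 22 FPKM in Carma3xpA/+ libraries, against 3.32, 4.65 and 5.74 FPKM in WT libraries. Every Carma3xpA/+ library was above every WT library, and the mean was 6.18-fold higher (log2 difference 2.37 ± 0.17, SE, adjusted p = 1.26e-07). Ccng1, which encodes cyclin G1 and is a p53 target, had 102, 100.2 and 107 FPKM in Carma3xpA/+ libraries, against 49.8, 45.5 and 58.0 FPKM in WT libraries. It was 2.02-fold higher, again without overlap (log2 difference 1.01 ± 0.10, adjusted p = 5.62e-06).

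Other chromosome 11 genes with large positive differences were Sec14l2, a lipid transfer protein gene (log2 difference 1.51), Serpinf2, which encodes the plasmin inhibitor alpha-2-antiplasmin (1.5), Cygb, which encodes cytoglobin (0.94), and Gfpt2, an enzyme of hexosamine synthesis (0.92). Each was called, with adjusted p between 0.000207 and 0.00111, and each call held without any 1 of the 6 libraries. Epn2, an endocytic adaptor gene, was called too (0.93, adjusted p = 0.0198), but not without Carma3xpA/+ replicate 1 (adjusted p = 0.101) or 2 (0.064) or WT replicate 3 (0.127). Of the chromosome 11 calls, 80 of 224 higher and 9 of 19 lower held without any 1 d6 library, against 151 of 351 and 183 of 446 elsewhere.

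The 19 chromosome 11 genes that went the other way included 5 chemokine genes, Ccl2, Ccl3, Ccl4, Ccl6 and Ccl9, of which all but Ccl3 were singled out after their values were seen. Ccl2 was not called without Carma3xpA/+ replicates 1 or 3 or WT replicates 2 or 3 (adjusted p up to 0.174). Ccl3 (chromosome 11, 83647844 to 83649355), a chemokine of activated leukocytes, had 1.52, 1.73 and 0.934 FPKM in Carma3xpA/+ libraries, against 4.53, 14.2 and 15.8 FPKM in WT libraries. WT replicate 1 was the lowest WT library and still above all Carma3xpA/+ libraries, and the mean was 8.26-fold higher in WT (log2 difference -2.24 ± 0.26, adjusted p = 1.65e-05; -2.75 without WT replicate 1). Grb10, an imprinted adaptor gene that restrains growth, had 54.0, 49.0 and 50.9 FPKM in Carma3xpA/+ libraries, against 97.1, 92.4 and 99.5 FPKM in WT libraries. Its libraries agreed closely within each genotype and did not overlap between them (log2 difference -0.90 ± 0.20, adjusted p = 0.00716). Grb10 was also called lower at d0, d3 and d10, by -0.93, -1.39 and -0.74 on the log2 scale. Lgals9, which encodes the lectin galectin-9, was lower at d6 (log2 difference -0.93, adjusted p = 0.00794) but not without Carma3xpA/+ replicate 1 (0.0521) or WT replicate 2 (0.0582). At d0 and d3 Lgals9 was called higher, by 0.97 and 0.90 (adjusted p = 0.00356 and 0.0102).

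The endoderm and yolk sac list had the highest median difference of the 28 lists. Of its 30 tested members 13 were called higher (43.3%) and 1 lower (3.33%), against 4.3% and 3.48% of all genes tested. No list was tested against these shares. Of the called members 12 and 1 were outside chromosome 11. The median log2 difference of the list was 1.28, against 0.00 over all genes tested. In bulk RNA, more cells of a type and more RNA per cell cannot be told apart. Summed over the list, Carma3xpA/+ libraries held 2476, 2402 and 2802 FPKM, against 1393, 1455 and 1345 FPKM in WT libraries, without overlap. The count of members called higher was 10 or 11 without any 1 d6 library.

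Among receptors for uptake, Cubn (mm10 chromosome 2, 13276338 to 13491813) encodes cubilin and had 9.44, 13.2 and 12 FPKM in Carma3xpA/+ libraries, against 0.647, 1.11 and 1.59 FPKM in WT libraries. It was 10.3-fold higher in the mean with no overlap (log2 difference 2.58 ± 0.24, adjusted p = 1.38e-06). Amn, which encodes its partner amnionless, had 5.71, 8.82 and 8.80 FPKM in Carma3xpA/+ libraries, against 0.832, 1.04 and 1.25 FPKM in WT libraries (log2 difference 2.09 ± 0.37, adjusted p = 0.00112). Both genes of the receptor pair thus stood at or below 1.59 FPKM in every WT library and above 5.7 FPKM in every Carma3xpA/+ library. Dab2, an endocytic adaptor of the same epithelium, was 2.87-fold higher (log2 difference 1.48, adjusted p = 0.00497), and Lgmn, a lysosomal protease gene, 2.77-fold (1.46, adjusted p = 0.000404).

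Of genes for secreted plasma proteins, Afp (mm10 chromosome 5, 90490737 to 90508907), which encodes alpha-fetoprotein, had 68.2, 124 and 106 FPKM in Carma3xpA/+ libraries, against 28.4, 25.6 and 19.7 FPKM in WT libraries. The lowest Carma3xpA/+ library was above the highest WT library (4.04-fold, log2 difference 1.94 ± 0.30, adjusted p = 0.000362). Apob, the structural apolipoprotein of secreted lipid particles, had 42.0, 76.7 and 71.5 FPKM in Carma3xpA/+ libraries, against 7.51, 11.7 and 17.3 FPKM in WT libraries. It was 5.21-fold higher (log2 difference 2.31 ± 0.43, adjusted p = 0.0016). Apoc2, an activator of lipoprotein lipase, had 51.8, 81.7 and 45.1 FPKM in Carma3xpA/+ libraries, against 4.68, 11.6 and 12.1 FPKM in WT libraries (6.29-fold, log2 difference 2.58 ± 0.45, adjusted p = 0.00109). Fgb, a fibrinogen chain gene, was 3.29-fold higher (adjusted p = 0.00654). The calls of Apoa1 (log2 difference 1.99, adjusted p = 0.0213) and of the thyroid hormone carrier Ttr (1.53, adjusted p = 0.0331) were less stable: without 1 d6 library the adjusted p of Apoa1 lay between 0.0419 and 0.084 and that of Ttr between 0.0587 and 0.115, with Apoa1 called only without WT replicate 3. The fibrinogen chain gene Fga, called at 1.04 (adjusted p = 0.0286), had adjusted p between 0.06 and 0.0956 without each of the 6 libraries.

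Among transcription factors of endoderm, Hnf4a, a nuclear receptor that drives apolipoprotein genes, had 7, 7.73 and 7.64 FPKM in Carma3xpA/+ libraries, against 1.52, 2.31 and 1.99 FPKM in WT libraries. It was 3.84-fold higher without overlap (log2 difference 1.53 ± 0.27, adjusted p = 0.00117). Gata6, Sox17 and Foxa2, factors of early and definitive endoderm, were not called: Gata6 averaged 30.3 ± 1.05 FPKM in Carma3xpA/+ and 29.3 ± 3.06 FPKM in WT, Sox17 6.40 ± 0.183 and 5.36 ± 0.295 FPKM, and Foxa2 17.1 ± 1.42 and 11.8 ± 3.72 FPKM in the same order, with adjusted p of 0.968, 0.787 and 0.233. Foxa1 was called lower (7.92 ± 1.34 FPKM in Carma3xpA/+ and 12.1 ± 1.39 FPKM in WT, adjusted p = 0.0328), although not without Carma3xpA/+ replicates 1 or 2 or WT replicates 1 or 2, with adjusted p up to 0.162. The albumin gene Alb, a marker of hepatocytes, was listed at 0 in all 6 libraries. Epcam, an adhesion gene that endoderm shares with other epithelia, was not called (69.6 ± 7.57 FPKM in Carma3xpA/+ and 63.5 ± 9.78 FPKM in WT, adjusted p = 0.692).

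**Figure D2:**
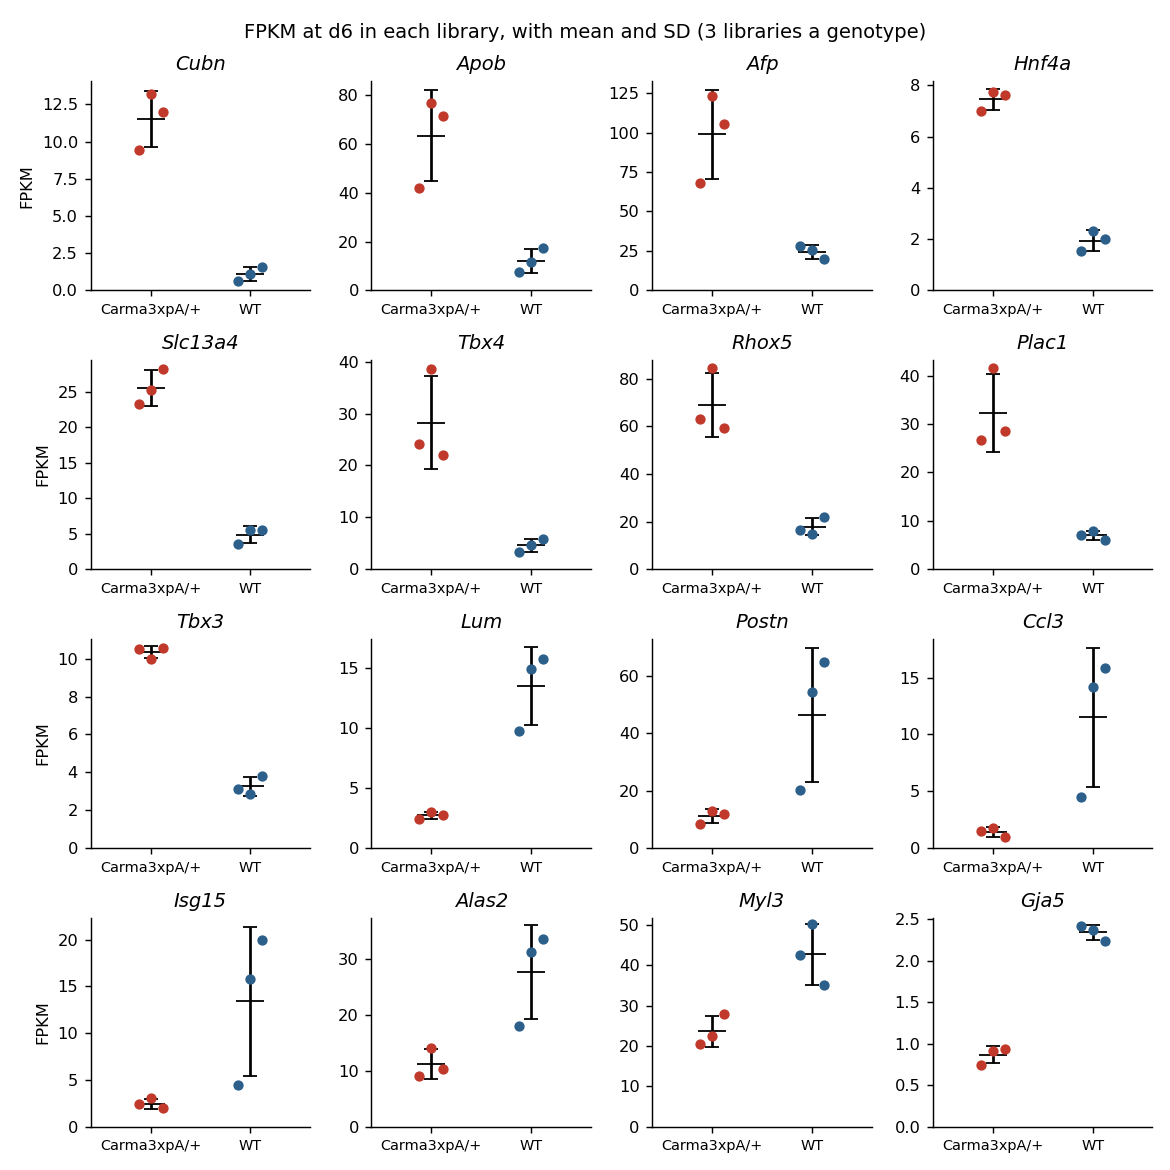
FPKM of 16 genes in each d6 library (points: red Carma3xpA/+, blue WT; bars: mean ± SD, n = 3 each). The groups are apart in every panel, but most of these genes were named by a rule that required a call and no overlap. Of all genes tested, 31% had groups that did not overlap, in either direction. Gja5 entered the test only through the WT d6 libraries. For Postn, Ccl3 and Isg15 WT replicate 1 is the lowest WT library, at 20.2, 4.53 and 4.51 FPKM.

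Of the 81 genes called higher by at least 1 (log2), 19 lay on the X chromosome, which held 495 of the 13373 genes tested. Of these 19, Plac1, Rhox5, Fmr1nb and Nxf7 were named for the size of their difference. Plac1, a gene of placenta, had 26.8, 41.5 and 28.6 FPKM in Carma3xpA/+ libraries, against 7.11, 7.91 and 6.05 FPKM in WT libraries (4.60-fold, log2 difference 2.03 ± 0.21, adjusted p = 5.62e-06). Rhox5, a homeobox gene of the reproductive tract and extraembryonic tissue, had 63.1, 84.5 and 59.5 FPKM in Carma3xpA/+ libraries, against 16.5, 14.9 and 21.7 FPKM in WT libraries (log2 difference 1.90 ± 0.17, adjusted p = 1.12e-06). Neither gene's groups overlapped. Rhox5 was higher at d0 and d3 as well (2.02 and 1.81, adjusted p = 4.74e-07 and 1.58e-06) and not called at d10 (0.25, adjusted p = 0.396). Fmr1nb, expressed in testis, was called higher on all 4 days, by 0.72, 0.74, 1.79 and 1.52 at d0, d3, d6 and d10. Nxf7, of the family of RNA export factors, was called at d6 (1.69, adjusted p = 0.00304). On chromosome 6 Slc13a4, a sulfate transporter gene of placenta and yolk sac, had 23.2, 25.3 and 28.3 FPKM in Carma3xpA/+ libraries, against 3.56, 5.59 and 5.48 FPKM in WT libraries (log2 difference 2.19 ± 0.25, adjusted p = 1.21e-05). Of 11 germ cell genes 2 were called higher (18.2%), against 4.3% of all genes tested. Sycp3, a protein of the meiotic chromosome axis, had 14.0, 14.7 and 14.7 FPKM in Carma3xpA/+ libraries, against 4.63, 4.86 and 5.20 FPKM in WT libraries (adjusted p = 7.04e-05). Tdrd12 was the other (log2 difference 0.51, adjusted p = 0.012). It was not called without Carma3xpA/+ replicate 1 (0.0553) or 2 (0.0722).

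Of 13 tested mitochondrial genes 1 was called higher and 3 lower, against 4.3% and 3.48% of all genes tested. The mitochondrial gene mt-Atp6, an ATP synthase subunit, had 1155, 1586 and 1419 FPKM in Carma3xpA/+ libraries, against 287, 315 and 232 FPKM in WT libraries (log2 difference 2.31 ± 0.51, adjusted p = 0.00659). It shares bases with mt-Atp8, which was not called (1272 ± 207 FPKM in Carma3xpA/+ and 1425 ± 189 FPKM in WT, adjusted p = 0.527), so how fragments were divided between these overlapping genes may enter both values. The 3 lower genes were mt-Nd2, mt-Nd4l and mt-Nd5, subunits of complex I, with adjusted p of 0.029, 0.0109 and 0.0417, and each lost its call without some single d6 library, with adjusted p up to 0.189, 0.0863 and 0.24.

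Of 27 tested members of the embryonic blood list 0 were called higher, 11 lower and 16 not, with a median log2 difference of -0.73. The share called lower was 40.7%, against 3.48% of all genes tested. Alas2 (mm10 X chromosome, 150547375 to 150570638), the first enzyme of heme synthesis in red cells, had 9.18, 14.2 and 10.4 FPKM in Carma3xpA/+ libraries, against 18.1, 31.3 and 33.7 FPKM in WT libraries (log2 difference -1.20 ± 0.19, adjusted p = 0.000327). WT replicate 1 was the lowest WT library here, and all Carma3xpA/+ libraries lay below it. The red cell factor Klf1 had 2.34, 4.38 and 2.96 FPKM in Carma3xpA/+ libraries, against 5.68, 7.21 and 8.21 FPKM in WT libraries (log2 difference -0.94 ± 0.14, adjusted p = 0.000251). Gfi1b, a repressor of erythroid and megakaryocytic cells, was lower by -1.03 (adjusted p = 0.00138), and Gata1 by -0.73 (adjusted p = 0.00371). The groups of Gfi1b overlapped, with 4.13 FPKM in Carma3xpA/+ replicate 2 and 3.99 FPKM in WT replicate 1. Csf2rb, a cytokine receptor chain gene of blood cells outside the list, was lower by -1.19 (adjusted p = 0.000112).

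The globins themselves varied widely between libraries. Hbb-bh1, an embryonic beta globin, had 835, 1287 and 1164 FPKM in Carma3xpA/+ libraries, against 1345, 2614 and 1824 FPKM in WT libraries, which do not overlap but was not called (log2 difference -0.79 ± 0.52, adjusted p = 0.465). Hba-x, the embryonic alpha globin on chromosome 11, had 442, 716 and 422 FPKM in Carma3xpA/+ libraries, against 596, 1177 and 868 FPKM in WT libraries, with overlap (adjusted p = 0.372). Of the near-identical copies Hba-a1 and Hba-a2, between which reads may be split, Hba-a2 was called lower (-0.94, adjusted p = 0.0326) and Hba-a1 not (-0.74, adjusted p = 0.0756), and the call of Hba-a2 was lost without Carma3xpA/+ replicates 1 or 3 or WT replicates 2 or 3, with adjusted p up to 0.23. Without 1 d6 library the blood list had between 8 and 14 members called lower.

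Of 14 macrophage and leukocyte genes 3 were called lower (21.4%) and 1, the chromosome 11 gene Cd68, higher (7.14%). Of all genes tested 3.48% were called lower and 4.3% higher. Tyrobp, a signalling adaptor of myeloid cells, had 0.619, 0.699 and 1.14 FPKM in Carma3xpA/+ libraries, against 1.83, 5.43 and 4.47 FPKM in WT libraries (log2 difference -1.36 ± 0.20, adjusted p = 0.000209). Spi1, the myeloid factor PU.1, and Fcer1g, an Fc receptor chain gene, were lower by -0.84 and -0.98 (adjusted p = 0.000212 and 0.003), whereas Cd68, a lysosomal protein gene, was higher by 0.80 (adjusted p = 0.0131), but not without Carma3xpA/+ replicate 1 or WT replicate 1 (adjusted p up to 0.0776). Of 21 interferon-stimulated genes 0 were called higher and 9 lower (42.9%), with a median of -0.47. Isg15, a ubiquitin-like protein that interferon induces, had 2.39, 3.06 and 1.98 FPKM in Carma3xpA/+ libraries, against 4.51, 15.8 and 19.9 FPKM in WT libraries. WT replicate 1 lay nearer to the Carma3xpA/+ libraries than to the other WT libraries. The log2 difference of Isg15 was -1.85 ± 0.52 (adjusted p = 0.0321), and -2.44 without WT replicate 1 (adjusted p = 0.00658). The call of Isg15 was lost without any other d6 library, with adjusted p up to 0.152. Ifit1 and Ifit3, which have close relatives that can share reads, were lower by -1.80 and -1.78 (adjusted p = 0.0011 and 0.00132), and by -2.32 and -2.31 without WT replicate 1. The list had 9 members called lower without WT replicate 1 and 3 or 4 without any of the other 5 d6 libraries. The 21 interferon-stimulated genes summed to 504, 379 and 514 FPKM in Carma3xpA/+ libraries, against 455, 785 and 585 FPKM in WT libraries, with WT replicate 1 inside the Carma3xpA/+ range. The 14 leukocyte genes summed to 17.2, 19.7 and 18.2 FPKM in Carma3xpA/+ libraries, against 20.8, 27.7 and 24.4 FPKM in WT libraries, and their part in the interferon result was not tested.

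Of 28 sarcomere genes 0 were called higher, 10 lower and 18 not, with a median log2 difference of -0.35. The share called lower was 35.7%, against 3.48% of all genes tested. Myl3, the ventricular essential light chain gene, had 20.5, 22.4 and 27.9 FPKM in Carma3xpA/+ libraries, against 42.6, 50.3 and 35.3 FPKM in WT libraries (log2 difference -0.83 ± 0.14, adjusted p = 0.00094). Mybpc3, a myosin binding protein gene, had 5.39, 6.55 and 7.38 FPKM in Carma3xpA/+ libraries, against 11.5, 10.4 and 12.7 FPKM in WT libraries (log2 difference -0.76 ± 0.11, adjusted p = 0.00027). Tnni1, the slow troponin I of the embryonic heart, was lower by -0.70 (adjusted p = 0.00123) and Myh7, the beta myosin heavy chain gene, by -0.56 (adjusted p = 0.00449). In these 4 genes the groups did not overlap. The calls of Myl2, the ventricular regulatory light chain gene (-0.90, adjusted p = 0.0434), and of the chaperone gene Cryab (-0.89, adjusted p = 0.0205) were lost without several single libraries, with adjusted p up to 0.25 for Myl2 and 0.0982 for Cryab. Among sarcomere genes that were not called, Actc1 averaged 181 ± 13 FPKM in Carma3xpA/+ and 214 ± 23.9 FPKM in WT (adjusted p = 0.745), Myh6 28.5 ± 2.09 and 33.3 ± 2.94 FPKM (adjusted p = 0.58), and Tnnt2 16.8 ± 1.13 and 21.6 ± 3.85 FPKM (adjusted p = 0.352). The list had 5 members called lower without Carma3xpA/+ replicate 1 or WT replicate 2. Outside that list, Cox6a2, the heart and muscle form of a cytochrome oxidase subunit, was lower by -1.11 (adjusted p = 0.00278).

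Of 17 calcium handling and excitation genes 2 were called lower (11.8%, against 3.48% of all genes tested) and 0 higher. Gja5, the connexin 40 gene of atrial and conduction cells and of arteries, had 0.747, 0.918 and 0.939 FPKM in Carma3xpA/+ libraries, against 2.42, 2.37 and 2.24 FPKM in WT libraries. The calcium channel gene Cacna1d averaged 0.768 ± 0.00993 FPKM in Carma3xpA/+ and 1.29 ± 0.0817 FPKM in WT. Both genes reached 1 FPKM in the 3 WT d6 libraries and in no other library of the series, so they entered the test only through the group where they were high. Their difference is therefore given as a description, and both went untested without any WT d6 library. Of 30 cardiac progenitor regulators 1 was called higher (3.33%) and 4 lower (13.3%), against 4.3% and 3.48% of all genes tested. The median log2 difference of the list was -0.12. Summed FPKM went the other way, with 396, 367 and 361 in Carma3xpA/+ libraries, against 334, 341 and 344 in WT libraries. Tbx3, a T-box repressor of the conduction system that stem cells also express, had 10.5, 9.96 and 10.5 FPKM in Carma3xpA/+ libraries, against 3.10, 2.86 and 3.80 FPKM in WT libraries (3.18-fold, adjusted p = 8.36e-05). Tbx1, a T-box factor of pharyngeal mesoderm and the second heart field, had 5.73, 3.14 and 6.18 FPKM in Carma3xpA/+ libraries, against 12.7, 9.35 and 9.34 FPKM in WT libraries (log2 difference -0.96 ± 0.16, adjusted p = 0.000891). The others called lower included Popdc2 and Mef2c, by -0.61 and -0.23, and both calls were lost without some single library, with adjusted p up to 0.0962 and 0.122. The count of progenitor regulators called lower was 1 without Carma3xpA/+ replicate 3 and 2 without Carma3xpA/+ replicate 2 or WT replicates 2 or 3, and it was 7 without Carma3xpA/+ d0 replicate 1. Nkx2-5 averaged 8.89 ± 2.14 FPKM in Carma3xpA/+ and 9.57 ± 1.00 FPKM in WT (adjusted p = 0.798), Isl1 9.80 ± 2.00 and 11.1 ± 1.10 FPKM (adjusted p = 0.723), and Hand2 29.6 ± 1.18 and 32.6 ± 3.19 FPKM (adjusted p = 0.748).

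Near the edited locus 0 of the 19 tested genes within 500 kilobases of Gata5 were called, against 7.78% of all genes tested. With so few genes, 0 cannot be told from that share. Their log2 differences lay between -0.23 and 0.16, with a median of -0.08. By limma 1 of the 19 had an unadjusted p under 0.05, as had 2560 of all 13373 genes tested, and the lowest adjusted p was 0.24. Gata5 itself had 11, 9.62 and 10 FPKM in Carma3xpA/+ libraries, against 10.6, 11.4 and 9.14 FPKM in WT libraries, and the groups overlapped. Of 29 Notch pathway genes 1 was called higher (3.45%) and 3 lower (10.3%), against 4.3% and 3.48% of all genes tested. Dlk1, an imprinted gene for a Notch-related ligand, had 54.5, 53.1 and 51.3 FPKM in Carma3xpA/+ libraries, against 16.5, 26.1 and 26.7 FPKM in WT libraries (log2 difference 1.19 ± 0.16, adjusted p = 0.0001). Dll4, the arterial Notch ligand, was lower by -0.58 (adjusted p = 0.00138). Hes5, a Notch target of neural cells, and Lfng, a Notch modifier, were lower by -0.73 and -0.78, but both calls were lost without most single libraries, with adjusted p up to 0.12 and 0.139, and the list had 1 or 2 members called lower without any 1 d6 library. Notch1, Rbpj, Hes1 and Hey1 were not called. Of 27 endothelial genes 1 was called higher (3.7%), the chromosome 11 gene Flt4 (log2 difference 0.53, adjusted p = 0.00412). Called lower were 3 (11.1%), Emcn, Gpr182 and Lyve1 (-0.63, -0.50 and -0.38). Emcn was not called without Carma3xpA/+ replicate 1 or WT replicates 1 or 2, with adjusted p up to 0.0764. The vessel genes Kdr and Cdh5 averaged 35 ± 1.5 and 49.9 ± 5.13 FPKM in Carma3xpA/+, against 28.1 ± 2.67 and 67.2 ± 8.79 FPKM in WT, and were not called (adjusted p = 0.769 and 0.156). Of genes outside the lists, Esm1, secreted by endothelial tip cells, and Madcam1, an adhesion molecule gene, were lower by -1.17 and -1.24 (adjusted p = 4.89e-05 and 9.5e-05).

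**Figure D3:**
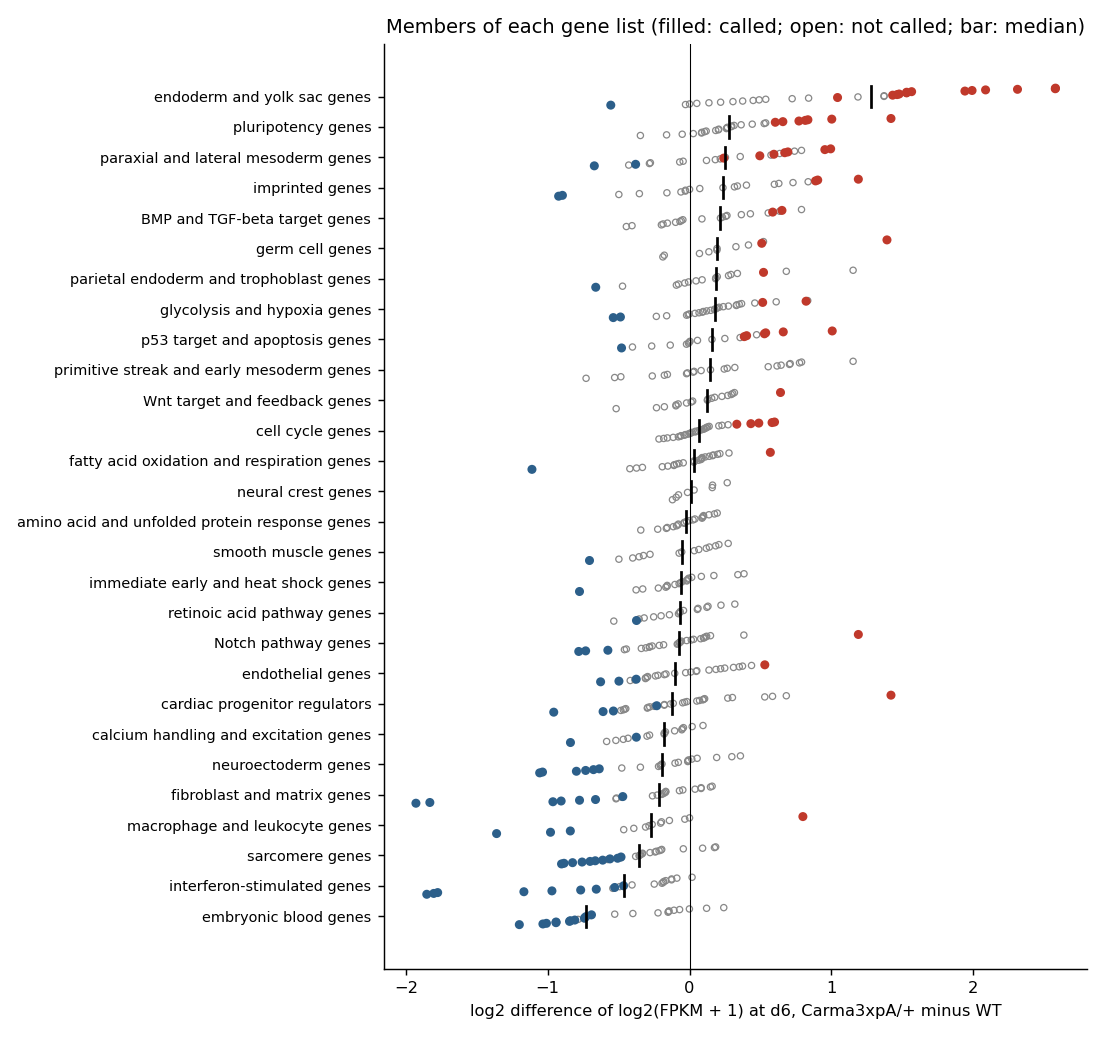
Log2 difference at d6, Carma3xpA/+ minus WT, of every tested member of 28 gene lists (filled red: called higher; filled blue: called lower; open: not called; black bar: median of the list). The endoderm and yolk sac list has the highest median, 1.28, and the embryonic blood list the lowest, -0.73.

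Of 22 neuroectoderm genes 0 were called higher, 6 lower and 16 not, with a median of -0.20. The share called lower was 27.3%, against 3.48% of all genes tested. Stmn2, a tubulin regulator of neurons, had 3.20, 3.34 and 3.37 FPKM in Carma3xpA/+ libraries, against 9.17, 8.46 and 6.46 FPKM in WT libraries (log2 difference -1.06 ± 0.20, adjusted p = 0.00164). Tubb3, the neuronal tubulin gene, and En1, a homeobox gene of the midbrain, were lower by -1.04 and -0.80 (adjusted p = 0.00353 and 0.00359). Outside the list, and named for the size of its difference, Nkx6-1, a ventral neural patterning factor, had 0.922, 1.03 and 0.803 FPKM in Carma3xpA/+ libraries, against 4.52, 5.17 and 6.14 FPKM in WT libraries (5.74-fold higher in WT, log2 difference -1.70 ± 0.18, adjusted p = 6.52e-06). Foxb1, Mab21l2 and Sox21, named by the same rule, were lower by -1.41, -1.25 and -1.11 (adjusted p = 0.000127, 1.62e-05 and 1.65e-05). Of 8 neural crest genes limma called 0 in either direction.

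Of 24 fibroblast and matrix genes 0 were called higher and 7 lower, with a median of -0.21, and 17 were not called. The share called lower was 29.2%, against 3.48% of all genes tested. Summed over the list, the values were 464, 476 and 455 FPKM in Carma3xpA/+ libraries, against 430, 598 and 644 FPKM in WT libraries, and WT replicate 1 lay below all 3 Carma3xpA/+ libraries. Lum (mm10 chromosome 10, 97565128 to 97572703), which encodes the collagen-binding proteoglycan lumican, had 2.43, 3.00 and 2.77 FPKM in Carma3xpA/+ libraries, against 9.77, 14.9 and 15.7 FPKM in WT libraries (4.92-fold higher in WT, log2 difference -1.93 ± 0.14, adjusted p = 1.26e-07). Postn, which encodes periostin, had 8.47, 12.9 and 12 FPKM in Carma3xpA/+ libraries, against 20.2, 54.3 and 65.0 FPKM in WT libraries (log2 difference -1.83 ± 0.30, adjusted p = 0.000499; -2.34 without WT replicate 1). Dcn, another small proteoglycan gene, was lower by -0.96 (adjusted p = 0.000357). WT replicate 1 was the lowest WT library for all 3 genes and did not reach the Carma3xpA/+ range. Without WT replicate 1 the list had 9 members called lower, and without Carma3xpA/+ replicates 1 or 3 or WT replicates 2 or 3 it had 3. Of 15 smooth muscle genes 1 was called lower (6.67%), Tagln (-0.71, adjusted p = 0.0462). Tagln lost its call without any 1 d6 library but WT replicate 3, with adjusted p up to 0.21. Without Carma3xpA/+ d0 replicate 1, 4 smooth muscle genes were called lower.

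Of 23 paraxial and lateral mesoderm genes 7 were called higher (30.4%) and 2 lower (8.7%), against 4.3% and 3.48% of all genes tested. Of these calls 5 and 2 were outside chromosome 11. Twist2, a helix-loop-helix factor of mesenchyme, had 8.55, 11.7 and 8.63 FPKM in Carma3xpA/+ libraries, against 3.84, 4.34 and 4.72 FPKM in WT libraries (log2 difference 1.00 ± 0.15, adjusted p = 0.000327). The Hox gene Hoxb6 on chromosome 11 had 3.37, 5.61 and 3.44 FPKM in Carma3xpA/+ libraries, against 1.65, 1.6 and 1.56 FPKM in WT libraries (adjusted p = 0.00044). Hoxa7 on chromosome 6 was 5.93-fold higher at a low level, 0.863 ± 0.259 FPKM in Carma3xpA/+ and 0.145 ± 0.0737 FPKM in WT (log2 difference 0.69, adjusted p = 0.000573). The list had 4 members called higher without Carma3xpA/+ replicate 2. Of 23 primitive streak and early mesoderm genes limma called 0, with a median log2 difference of 0.15. Without Carma3xpA/+ d0 replicate 1, which enters only the shared spread, 4 of them were called higher. T averaged 23.4 ± 5.90 FPKM in Carma3xpA/+ and 39.4 ± 9.84 FPKM in WT (adjusted p = 0.385).

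Some pluripotency genes were higher in Carma3xpA/+: of 28 tested, none of them on chromosome 11, 7 were called higher and 0 lower, with a median of 0.28. The share called higher was 25%, against 4.3% of all genes tested. Dppa3, a gene of naive stem cells and germ cells, had 5.04, 6.43 and 5.39 FPKM in Carma3xpA/+ libraries, against 3.23, 2.07 and 1.74 FPKM in WT libraries (log2 difference 1.00 ± 0.16, adjusted p = 0.000362), and it was called higher at d0, d3 and d10 as well. L1td1, an RNA-binding protein gene of stem cells, and Zfp42, which encodes Rex1, were higher by 0.83 and 0.82 (adjusted p = 0.00389 and 0.00143). The core factors Pou5f1 and Nanog were not called: Nanog had 13.6, 14.8 and 10 FPKM in Carma3xpA/+ libraries, against 9.18, 9.14 and 7.23 FPKM in WT libraries (adjusted p = 0.0815), and Pou5f1 had an adjusted p of 0.737.

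Of 19 p53 target and apoptosis genes 6 were called higher (31.6%) and 1, Plk2, lower (5.26%), against 4.3% and 3.48% of all genes tested. Besides Ccng1, Pmaip1, which encodes the death factor Noxa, had 15, 15.8 and 13.5 FPKM in Carma3xpA/+ libraries, against 10.1, 6.68 and 10.5 FPKM in WT libraries (log2 difference 0.66 ± 0.13, adjusted p = 0.00277). Cdkn1a, which encodes p21, was higher by 0.39 (adjusted p = 0.0103), though not without Carma3xpA/+ replicate 3 or WT replicate 1 (adjusted p up to 0.0607). The p53 gene Trp53, on chromosome 11, averaged 45.6 ± 1.91 FPKM in Carma3xpA/+ and 46.4 ± 3.85 FPKM in WT (adjusted p = 0.953). Without Carma3xpA/+ replicate 3 the list had 2 members called higher, and without WT replicate 2 it had 3. Of 32 cell cycle genes 5 were called higher (15.6%) and 0 lower, and 4 of the 5, Aurkb, Birc5, Tk1 and Top2a, were on chromosome 11. The fifth, Ccne2, which encodes a cyclin of S phase entry, was higher by 0.60 (adjusted p = 0.00251). This list had 2 or 3 members called higher without any d6 library other than WT replicate 1.

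Of 21 imprinted genes 3 were called higher (14.3%) and 2 lower (9.52%), against 4.3% and 3.48% of all genes tested. Without Carma3xpA/+ d0 replicate 1, 8 imprinted genes were called higher. Rtl1, from the same imprinted cluster on chromosome 12 as Dlk1, had 1.10, 1.30 and 1.00 FPKM in Carma3xpA/+ libraries, against 0.162 and 0.313 FPKM in WT replicates 1 and 3 and listed at 0 in WT replicate 2. Rtl1 entered the test only through the 3 Carma3xpA/+ d6 libraries, so this difference is a description too. Phlda2, which restrains placental growth, was higher by 0.90 (adjusted p = 0.0105), and Nnat, expressed in brain and pancreas, lower by -0.92 (adjusted p = 0.00925), with the call of Nnat lost without Carma3xpA/+ replicate 1 or WT replicate 1 and that of Phlda2 without Carma3xpA/+ replicate 2 or WT replicates 1 or 3 (Phlda2 adjusted p up to 0.0602). Of 29 glycolysis and hypoxia genes 2 were called higher and 2 lower (6.9% each, against 4.3% and 3.48% of all genes tested). The glucose transporter gene Slc2a3 had 328, 241 and 326 FPKM in Carma3xpA/+ libraries, against 162, 164 and 174 FPKM in WT libraries (log2 difference 0.82 ± 0.15, adjusted p = 0.0013). The glycolysis list had 7 members called higher without Carma3xpA/+ replicate 2 and 1 without any other d6 library, and 0 or 1 called lower. Of 21 BMP and TGF-beta target genes 2 were called higher (9.52%, against 4.3% of all genes tested). They were Smad9, a BMP signal transducer gene (0.59, adjusted p = 1.87e-05), and the inhibitor gene Smad6 (0.65, adjusted p = 0.0229). Smad6 was not called without Carma3xpA/+ replicates 1 to 3 or WT replicates 1 or 2 (adjusted p up to 0.0889).

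In the remaining lists at most 1 gene was called in either direction, while 4.3% of all genes tested were called higher and 3.48% lower. They were the chromosome 11 gene Tcf7 among 19 Wnt target and feedback genes (higher, adjusted p = 0.0491, lost without any 1 d6 library, up to 0.161), Rxrg among 17 retinoic acid pathway genes (lower, adjusted p = 0.0198, up to 0.102 without 1 library), Tfap2c (higher, adjusted p = 0.0308, up to 0.149) and Plat (lower, adjusted p = 0.0067) among 17 parietal endoderm and trophoblast genes, the chromosome 11 gene Acadvl (higher, adjusted p = 0.00366) and Cox6a2 (lower) among 27 genes of fatty acid oxidation and respiration, and Jund (lower, adjusted p = 0.00101) among 20 immediate early and heat shock genes. Of 21 amino acid and unfolded protein response genes limma called 0. Over all genes tested, 2560 had an unadjusted p under 0.05.

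**Figure D4:**
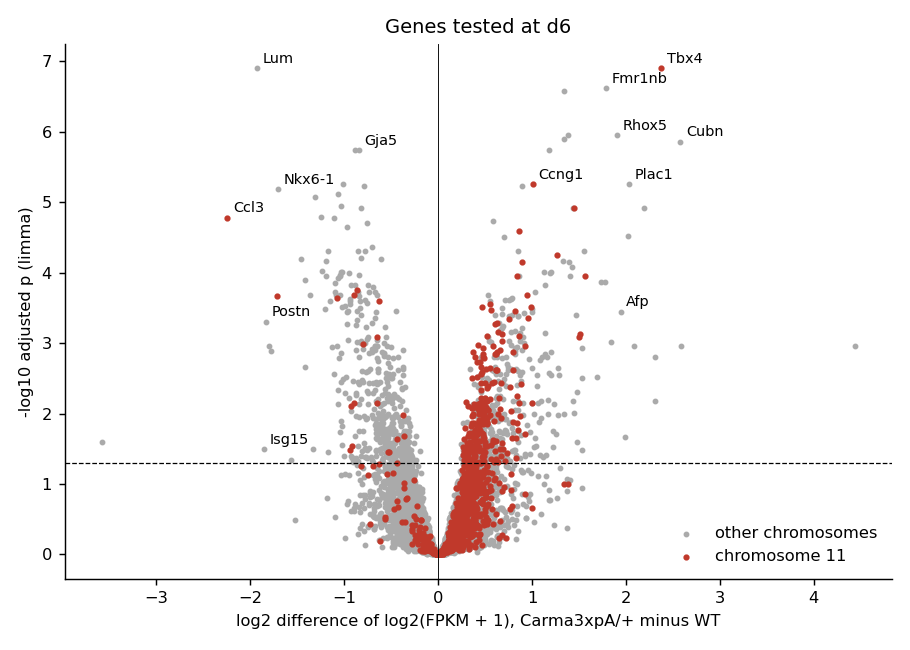
Log2 difference at d6, Carma3xpA/+ minus WT (x axis), against -log10 of limma's adjusted p (y axis) for all 13373 genes tested, with chromosome 11 genes in red and a dashed line at an adjusted p of 0.05. The red points lie mostly to the right of 0, while Tbx4, at 2.37, and Ccl3, at -2.24, mark the extremes of chromosome 11.

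The d6 difference was set beside those at d0, d3 and d10, which were measured in separate libraries. On chromosome 11 the median log2 difference was 0.13, 0.28, 0.26 and 0.22 at d0, d3, d6 and d10, and 241, 243, 224 and 249 genes were called higher. Carma3xpA/+ d0 replicate 1 needs care in the d0 values. Leaving it out moved the d6 calls from 575 higher and 465 lower to 995 and 717, through the shared spread. It is part of the d0 difference itself, and the d0 values are given only with it. Over all genes tested, 9.53% were called higher and 9.29% lower at d0, 4.54% and 1.93% at d3, and 4.95% and 5.91% at d10. Of the 224 called at d6, 96 were also called higher at d0, 102 at d3 and 101 at d10, which is 42.9%, 45.5% and 45.1% of the d6 genes and 39.8%, 42% and 40.6% of the genes called on those days. On the other chromosomes 37, 84 and 71 of the 351 genes called higher at d6 were called higher at d0, d3 and d10 (10.5%, 23.9% and 20.2% of the d6 genes; 3.58%, 23.1% and 17.2% of the other day's). Of the 446 genes called lower at d6, 40, 39 and 141 were called lower at d0, d3 and d10 (8.97%, 8.74% and 31.6% of the d6 genes; 3.28%, 15.2% and 18.4% of the other day's).

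A change of the genotype difference with time was tested for all genes, and some of the large d6 differences are given here. The genotype difference at d6 differed from that at d3 for 356 genes (2.66%), 39 of them on chromosome 11, and from that at d10 for 565 genes (4.22%), 43 of them on chromosome 11. Cubn averaged 11.5 ± 1.90 FPKM in Carma3xpA/+ and 1.11 ± 0.471 FPKM in WT at d6, but 2.18 ± 1.36 and 1.74 ± 0.935 FPKM in the same genotypes at d10, and its difference at d6 exceeded that at d10 by 2.40 (adjusted p = 0.000163). Hnf4a averaged 6.58 ± 4.19 FPKM in Carma3xpA/+ and 6.55 ± 1.42 FPKM in WT at d10, and Afp 359 ± 189 and 313 ± 95.1 FPKM, with differences at d6 that exceeded those at d10 by 1.69 and 1.88 (adjusted p = 0.0123 and 0.0129). Neither gene was called at d10. Other endoderm and yolk sac genes were not called different between d6 and d10. For Apoc2, Amn and Apoa1 the difference at d6 minus that at d10 was 1.80, 1.19 and 1.82 (adjusted p = 0.137, 0.248 and 0.206). Myl3 went the other way: it averaged 93.7 ± 10.3 FPKM in Carma3xpA/+ and 50.6 ± 6.72 FPKM in WT at d10, where it was called higher (log2 difference 0.88, adjusted p = 0.000281), and its difference at d6 minus that at d10 was -1.70 (adjusted p = 2.48e-05). Tnni1 and Mybpc3 were likewise lower at d6 and higher at d10 (0.77 and 0.55, adjusted p = 0.000278 and 0.00303). Lum was lower on both days, with 52.7 ± 5.01 FPKM in Carma3xpA/+ and 172 ± 35 FPKM in WT at d10, and the 2 differences were not called different (-0.26, adjusted p = 0.586). Tbx4 was higher on both days, by 2.37 at d6 and 1.03 at d10.

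**Figure D5:**
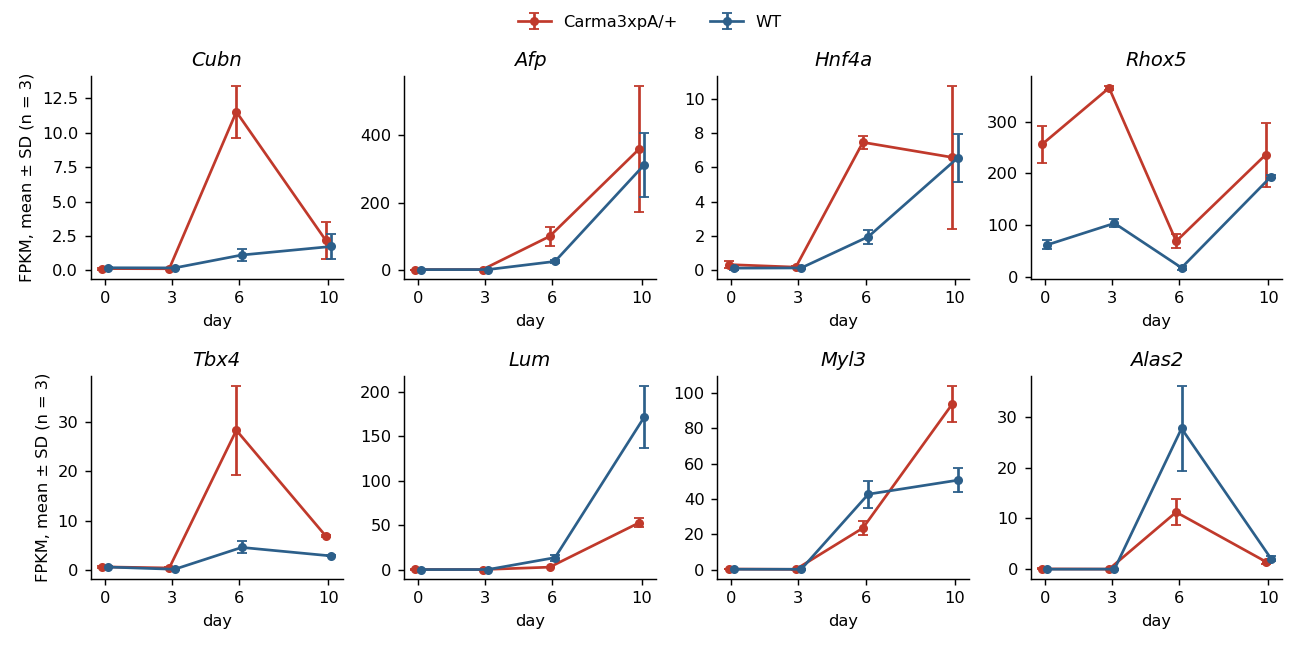
Mean FPKM ± SD (n = 3) at d0, d3, d6 and d10 of 8 genes in Carma3xpA/+ (red) and WT (blue). Cubn, Tbx4 and Hnf4a have their largest log2 difference at d6, Myl3 is lower in Carma3xpA/+ at d6 and higher at d10, and the 2 lines of Rhox5 are apart from d0 to d6, with 236 ± 61.9 FPKM in Carma3xpA/+ and 194 ± 3.27 FPKM in WT at d10.

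The genes were also grouped by their course in WT between d3 and d10, leaving out chromosome 11. Of 2154 genes that rose by at least 1 (log2, adjusted p under 0.05) in WT, 97 were called higher (4.5%) and 208 lower (9.66%) in Carma3xpA/+ at d6. Of 840 genes that fell, 69 were called higher (8.21%) and 9 lower (1.07%), and of the 9294 others 185 were called higher (1.99%) and 229 lower (2.46%). The WT libraries of d3 and d10 that formed these classes were not part of the d6 difference, although they shared the estimate of the spread.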

How the data were processed

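RNA libraries of embryoid bodies and undifferentiated cells were stranded (dUTP), per the labels' protocols. The authors deposited FPKM values per gene; the submitters' processing notes name FastQC, cutadapt, HISAT2, StringTie and the build mm10, with versions and settings not given in the sources used here. Depth is unknown, and the transcript table was not used. From the FPKM values, log2(FPKM + 1) was fitted with limma 3.58.1 (R 4.3.3, trend on mean level) over all 24 libraries with 8 group means, after a filter of at least 1 FPKM in at least 3 libraries. The d6 contrast and the differences of contrasts (d6 minus d3, d6 minus d10) were adjusted over all 13373 genes. No count test was run.

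Named were the 12 largest called differences each way outside chromosome 11, the 8 largest higher and 4 largest lower on it (averaging 5 FPKM or more in 1 genotype, with groups apart and an ordinary symbol), up to 3 called genes per list, the genes within 500 kilobases of Gata5, and a set of regulators and markers. A few genes that meet this rule are not reported here. Any other named gene was picked with its values in view. The members and the 28 lists were chosen with earlier results of these data known. Alternatives covered the pseudocount, filter, scaling, samples fitted, replicate block, weights and single libraries; list counts without single libraries were added after seeing the data. On data simulated for the d6 comparison (13373 genes), 31 of 67, 53 of 67 and 65 of 66 genes changed by 0.5, 1 and 2 (log2) were called, with 11 false calls. The false calls made up 6.9% of all calls. The changed genes were drawn only from genes above a minimum mean level in WT at d6, so these rates do not cover low genes. The spread was normal and the same in all libraries of a gene, so libraries of unequal quality were not simulated.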

Additional observations from a re-analysis of the deposited data

Results flagged for a closer look

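For the genes below, the genotype difference at d6 (Carma3xpA/+ minus WT, log2 scale) differed from that at d3 or at d10 by limma's test of the difference between the 2 contrasts, at an adjusted p under 0.05. A positive value means that the difference at d6 was the higher one. Hnf4a, Myl3, Tnni1 and Mybpc3 were added after their values were seen. The comparisons share the d6 libraries.

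Among endoderm and yolk sac genes and their regulators, the value at d6 minus that at d3 was 2.65 for Cubn, 1.96 for Amn, 1.89 for Afp and 1.47 for Hnf4a. In the same group the value at d6 minus that at d10 was 2.40 for Cubn, 3.18 for Apob, 1.88 for Afp and 1.69 for Hnf4a. Among genes of placenta, germ line or the X chromosome, the value at d6 minus that at d3 was 1.91 for Slc13a4, 1.63 for Plac1 and 1.05 for Fmr1nb. In the same group the value at d6 minus that at d10 was 2.01 for Slc13a4, 1.32 for Plac1, 1.65 for Rhox5 and 1.69 for Nxf7. Among other chromosome 11 genes, the value at d6 minus that at d3 was 2.08 for Tbx4, 1.44 for Serpinf2, 0.93 for Cygb, -2.27 for Ccl3 and -1.83 for Lgals9. In the same group the value at d6 minus that at d10 was 1.34 for Tbx4, 1.42 for Serpinf2, 0.80 for Ccng1 and -1.68 for Ccl3. Among blood, interferon, matrix and vessel genes, the value at d6 minus that at d3 was -1.22 for Alas2, -1.18 for Csf2rb, -3.48 for Isg15, -1.93 for Lum, -2.44 for Postn and -1.22 for Esm1. In the same group the value at d6 minus that at d10 was -0.87 for Csf2rb, -1.28 for Esm1 and -1.37 for Madcam1. Among neural genes, the value at d6 minus that at d3 was -1.76 for Nkx6-1, -1.23 for Foxb1, -1.20 for Mab21l2 and -0.99 for Sox21. In the same group the value at d6 minus that at d10 was -1.63 for Nkx6-1 and -1.10 for Foxb1. Among heart muscle genes, the value at d6 minus that at d3 was -0.80 for Myl3, -0.85 for Tnni1, -0.83 for Mybpc3 and -1.21 for Cox6a2. In the same group the value at d6 minus that at d10 was -1.70 for Myl3, -1.48 for Tnni1 and -1.31 for Mybpc3.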

How the results depend on the processing

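The median log2 difference was 0.31 on chromosome 11 with a pseudocount of 0.1, 0.24 with no filter and 0.29 with a filter of 5 FPKM; without single libraries it lay between 0.25 and 0.28, and that of other chromosomes between -0.02 and 0.00. The filter of 5 FPKM left 358 genes called higher and 193 lower, 11 lower on chromosome 11 and 194 higher and 182 lower elsewhere, and 137 and 190 genes whose difference at d6 differed from that at d3 and d10 (235 for d10 with a pseudocount of 0.1). Sample quality weights gave 1340 and 988, 474 and 31 on chromosome 11, 866 and 957 elsewhere, and 1919 and 3927. A log2 change of at least 1 left 81 and 53, 7 and 3 on chromosome 11, 74 and 50 elsewhere, and 132 and 214. A fit of only the groups compared gave 1117 for d3. The cause was not tested.

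The replicate numbers were not treated as pairs. After each genotype's own mean was taken off every gene, same-numbered d6 libraries of the genotypes correlated by -0.01, 0.02 and -0.04. With a replicate block over all 24 samples 549 genes were called higher and 442 lower; with the block and only the groups compared, 374 and 203, of these 87 higher on chromosome 11 and 187 lower elsewhere, with 927 and 364 for d3 and d10.

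Without single libraries, genes called higher numbered 309 to 995 and lower 261 to 717; on chromosome 11 108 to 406 and 11 to 26; elsewhere 201 to 589 and 250 to 691; the d3 and d10 contrasts had 205 to 707 and 321 to 1075. The highest of each range of counts came without Carma3xpA/+ d0 replicate 1, which enters only the shared spread. Besides this library, only those of the groups compared were left out in turn. The remaining libraries also enter the shared spread and were not left out. The counts over all genes fell by over 1.5 times without Carma3xpA/+ d6 replicates 1 or 3 or WT d6 replicate 2. The d3 count fell as far without Carma3xpA/+ d6 replicate 1, WT d6 replicate 2, Carma3xpA/+ d3 replicates 1 or 3 or WT d3 replicates 2 or 3, and the d10 count was 928 without Carma3xpA/+ d10 replicate 1 and 321 without WT d10 replicate 3. The sign turned without single libraries for Gata5 (-0.099 to 0.046), Nkx2-5 (-0.26 to 0.064) and Rbpj (-0.077 to 0.020), none of them called. The scaling centred outside chromosome 11 raised the share of calls that were higher to 60.9%, against 55.3% without scaling.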

Other observations

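On the Y chromosome, Kdm5d, a histone demethylase gene, had 1.18, 1.20 and 1.21 FPKM in Carma3xpA/+ libraries, against 0.238, 0.192 and 0.208 FPKM in WT libraries (log2 difference 0.86, adjusted p = 0.000112 by limma). Of other Y-linked genes, the zinc finger gene Zfy1 was called higher (1.22, adjusted p = 0.0178; the call was lost without some single d6 libraries), and not called were Ddx3y (13.2 ± 0.800 FPKM in Carma3xpA/+ and 8.85 ± 1.64 FPKM in WT, adjusted p = 0.711) and Eif2s3y (22.1 ± 1.08 and 19.6 ± 0.983 FPKM, adjusted p = 0.947).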
